A study of Mus musculus with 5 samples.

Results

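Mitochondrial carriers of the SLC25 family were followed in MutuDC, an established mouse line of cDC1-type dendritic cells, before and during treatment with Fanchinoline, a plant alkaloid spelled as in the labels. Members were taken by name, as genes whose symbol is Slc25a followed by a number, which gave 47 of the 53700 genes in the count table, each with 1 entry. Of these, 37 reached 1 CPM (counts scaled to library size) in at least 1 library and are called measured, among 12002 genes that did so. The 5 libraries were a vehicle control taken as 0 h (the design text of the series calls the control untreated) and cells exposed to the compound for 2, 6, 12 and 24 h, with 1 library per time point. No dose is given in the sources used here, and vehicle was sampled at 0 h alone, so exposure and time in culture cannot be told apart. In bulk RNA, fewer cells that express a gene and less RNA per cell cannot be told apart either.

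SLC25 proteins sit mostly in the inner mitochondrial membrane, where each moves a small set of metabolites between cytosol and matrix: ADP against ATP, phosphate, citrate, aspartate against glutamate, iron, glutathione, or cofactors such as coenzyme A and NAD. They are encoded in the nucleus, made in the cytosol and inserted by a dedicated import route through the TOM complex, small TIM chaperones and the TIM22 complex. Some members carry other symbols, among them the uncoupling proteins (Ucp genes) and the insertase-like Mtch1 and Mtch2, and these are described beside the members.

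The promoters of 4 carriers are shown, picked by their values in these libraries. Slc25a28 and Slc25a39 are the members that passed as falling over the 5 libraries in the trend test described later. Ucp2 is the most abundant gene of the wider family, and Slc25a33 the member with the highest ratio to vehicle at 2 h. Each run is the 250 bases before the RefSeq start on build GRCm38.p6, read 5′ to 3′ along the gene's strand: chr19:43674882-43675131 (minus strand) for Slc25a28, chr11:102407518-102407767 (minus) for Slc25a39, chr7:100493108-100493357 (plus) for Ucp2 and chr4:149774268-149774517 (minus) for Slc25a33. In the GENCODE annotation used for gene positions, Slc25a39 spans 102402985 to 102407946, so its window lies inside the gene, after the GENCODE start. The windows of Ucp2 and Slc25a33 reach a few bases past their GENCODE starts. Capitals mark matches, on either strand, to ACGTG or GCGTG, the core letters of a hypoxia response element.
Slc25a28: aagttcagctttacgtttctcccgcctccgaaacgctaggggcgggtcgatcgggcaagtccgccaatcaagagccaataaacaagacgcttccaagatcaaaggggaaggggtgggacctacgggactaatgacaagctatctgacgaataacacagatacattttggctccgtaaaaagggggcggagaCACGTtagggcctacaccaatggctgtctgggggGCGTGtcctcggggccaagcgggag
Slc25a39: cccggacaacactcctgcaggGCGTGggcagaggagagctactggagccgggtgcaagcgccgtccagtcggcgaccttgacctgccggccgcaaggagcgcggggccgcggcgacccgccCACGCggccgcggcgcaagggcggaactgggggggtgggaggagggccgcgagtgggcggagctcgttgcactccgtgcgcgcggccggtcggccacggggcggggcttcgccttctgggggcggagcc
Ucp2: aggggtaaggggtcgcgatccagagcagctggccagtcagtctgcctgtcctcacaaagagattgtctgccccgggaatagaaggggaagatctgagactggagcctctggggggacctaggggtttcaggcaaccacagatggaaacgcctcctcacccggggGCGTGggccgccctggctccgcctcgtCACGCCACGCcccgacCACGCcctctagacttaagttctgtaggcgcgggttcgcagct
Slc25a33: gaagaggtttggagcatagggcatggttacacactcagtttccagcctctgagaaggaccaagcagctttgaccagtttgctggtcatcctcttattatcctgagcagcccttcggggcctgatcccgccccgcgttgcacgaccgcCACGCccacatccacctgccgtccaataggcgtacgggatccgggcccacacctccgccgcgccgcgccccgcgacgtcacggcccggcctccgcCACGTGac

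In these windows Slc25a28 held 2 such matches, Slc25a39 2, Ucp2 4 and Slc25a33 3. In Slc25a33, 2 of the matches are the overlapping strands of the E-box CACGTG next to the start. RefSeq windows were matched for 29 of the 37 measured members, and 62.1% of them (18) held ACGTG or GCGTG, against 38.6% of all 27025 promoter windows of the same length. The GC box GGGCGG was in 69.0% of the members' windows (20) and 32.9% of all windows, and CCAAT in 44.8% (13) and 34.5%. CACGTG was in 17.2% (5) and 6.05%, and TGATGNAA, the core of the CARE element bound by ATF4, in 0 of 29 and 3.53%. The windows of all genes were not matched to those of the members in expression or base composition. A match describes these letters and is not a bound site.

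Libraries held 33568526 to 42854511 counts, so that 1 CPM stood for 32.8 to 42.7 counts. All 10 cDC1 markers (such as Xcr1, Clec9a and Irf8) were measured, with a summed level of 4660 to 6492 CPM. Of 19 markers of plasmacytoid cells, macrophages, T cells, B cells, epithelium and fibroblasts, 3 were measured (none above 27.3 CPM, the level of Tcf4), and the T cell genes Cd3e, Cd3g and Cd3d, with Mertk, Krt8 and Krt18, had 0 counts in every library. The median log2 ratio of the cDC1 markers at 24 h over vehicle was -0.38 (-0.34 length-adjusted, as explained below). Of the 10, 3 lay above vehicle and 7 below, from -1.24 (Cd8a) to 0.34 (Cadm1), with Xcr1 at -0.13. By the rule given later, 1 of 10 was called in either direction (Cd8a, lower), against 7.07% of all genes in either direction. In the trend test applied to the carriers further on, 2 of the 10 passed as falling, against 4.05% of all genes tested. They were Batf3, a transcription factor of cDC1 cells (slope -0.146, adjusted p = 0.0288, edgeR), and Cd8a (-0.257, adjusted p = 0.0265, edgeR). Transcripts of the mitochondrial genome made up 2.58% of the vehicle library, against 1.48 to 1.78% of each treated one. The vehicle library stood apart in how long and short transcripts were represented: at 24 h over vehicle, the median log2 ratio of all genes was -0.27 in the shortest quintile of transcripts and 0.42 in the longest, against -0.03 and 0.07 at 24 h over 2 h. Ratios adjusted for transcript length and GC content over all genes are given beside results, and called length-adjusted. At 24 h over vehicle the log2 ratio of Batf3 was -0.72 (length-adjusted -0.33) and that of Cd8a -1.24 (length-adjusted -1.24). The part of these differences in the carriers' ratios was not tested.

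**Figure D1:**
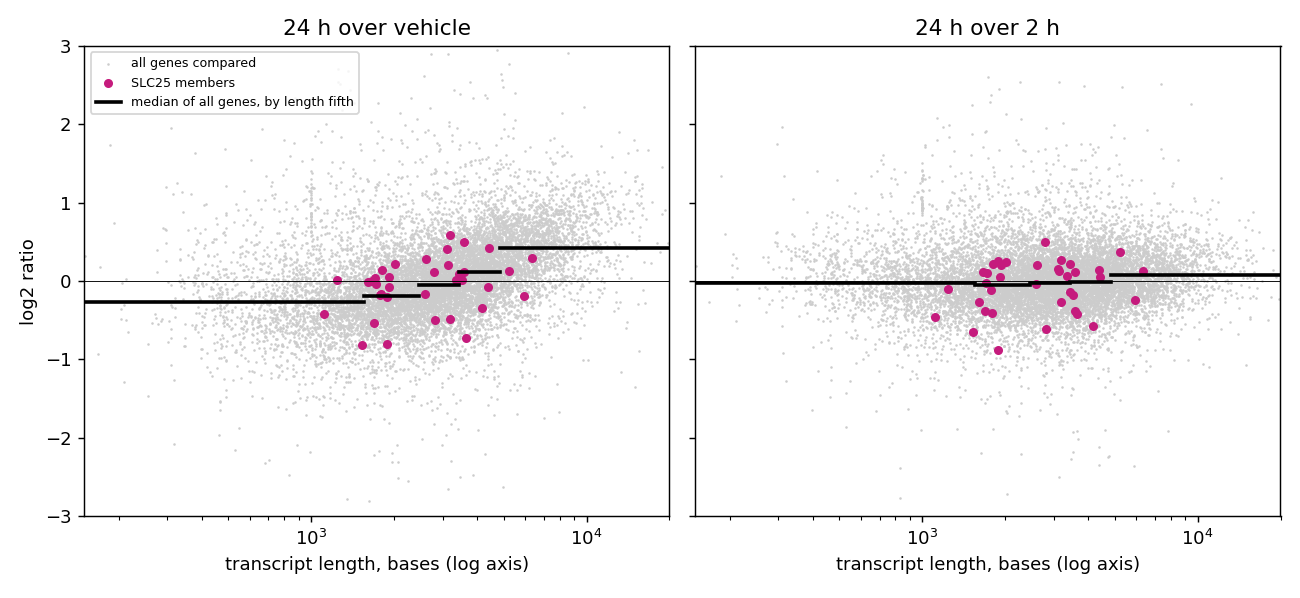
Log2 ratio (vertical axis) against the length of the longest transcript in bases (log axis) for all genes compared (grey), SLC25 members (pink) and the median of all genes in each quintile of length (black bars), at 24 h over vehicle and 24 h over 2 h. The black bars climb from -0.27 to 0.42 on the left and stay between -0.06 and 0.07 on the right; 81 of 11970 genes lie outside the plotted range.

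Carriers of adenine nucleotides and phosphate were the most abundant members. Compared per kilobase of transcript, Slc25a5, the ADP/ATP carrier ANT2 that exchanges matrix ATP for cytosolic ADP, had a mean level of 405 CPM per kilobase over the 5 libraries. Slc25a3, the phosphate carrier, followed with 189, Slc25a4, the ADP/ATP carrier ANT1, with 104, Slc25a39, a carrier of glutathione, with 93.7, and Slc25a10, the dicarboxylate carrier, with 75.96 CPM per kilobase. The next members were Slc25a24, a calcium-regulated carrier of ATP-magnesium (59.7), Slc25a1, the citrate carrier (58.2), and Slc25a11, the oxoglutarate carrier (55.1). At the lower end of the measured members stood Slc25a53, of unsettled substrate, with 0.611 CPM per kilobase. Slc25a4 and Slc25a39 lay close, with ranges of 92.2 to 112 and 76.01 to 109.9 CPM per kilobase that overlap. The range of Slc25a10 (67.7 to 84.8) overlaps that of Slc25a39, and the ranges of Slc25a24, Slc25a1 and Slc25a11 overlap each other. The order depends on the length used: over the union of all annotated exons, Slc25a3 had 54.95 CPM per kilobase and ranked below Slc25a4 (85.2), Slc25a24 (59.7) and Slc25a39 (57.3).

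Ucp2, an uncoupling protein that moves C4 metabolites and phosphate across the inner membrane, was more abundant than any member with a Slc25a symbol, at a mean of 680.0 CPM per kilobase. In the vehicle library it took 54.5% of all counts of the Slc25a, Ucp and Mtch genes (Wilson interval 54.3 to 54.7%, counting error only), and at 24 h 42.6% (42.4 to 42.8%). Mtch1 had 131.7 and Mtch2 47.8 CPM per kilobase. Ucp1, the uncoupling protein of brown fat, and Ucp3 stayed below 1 CPM in all 5 libraries.

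The other 10 members were not measured and get no ratio. Slc25a31 (the testis ADP/ATP carrier ANT4), Slc25a27, Slc25a41, Slc25a48 and Slc25a54 had 0 counts in each library, which allows up to 0.070 to 0.092 CPM (3 counts). Slc25a2 (an ornithine carrier), Slc25a18 (a glutamate carrier), Slc25a21, Slc25a29 and Slc25a34 had counts, at most 0.536 CPM, the level of Slc25a2 at 2 h.

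**Figure D2:**
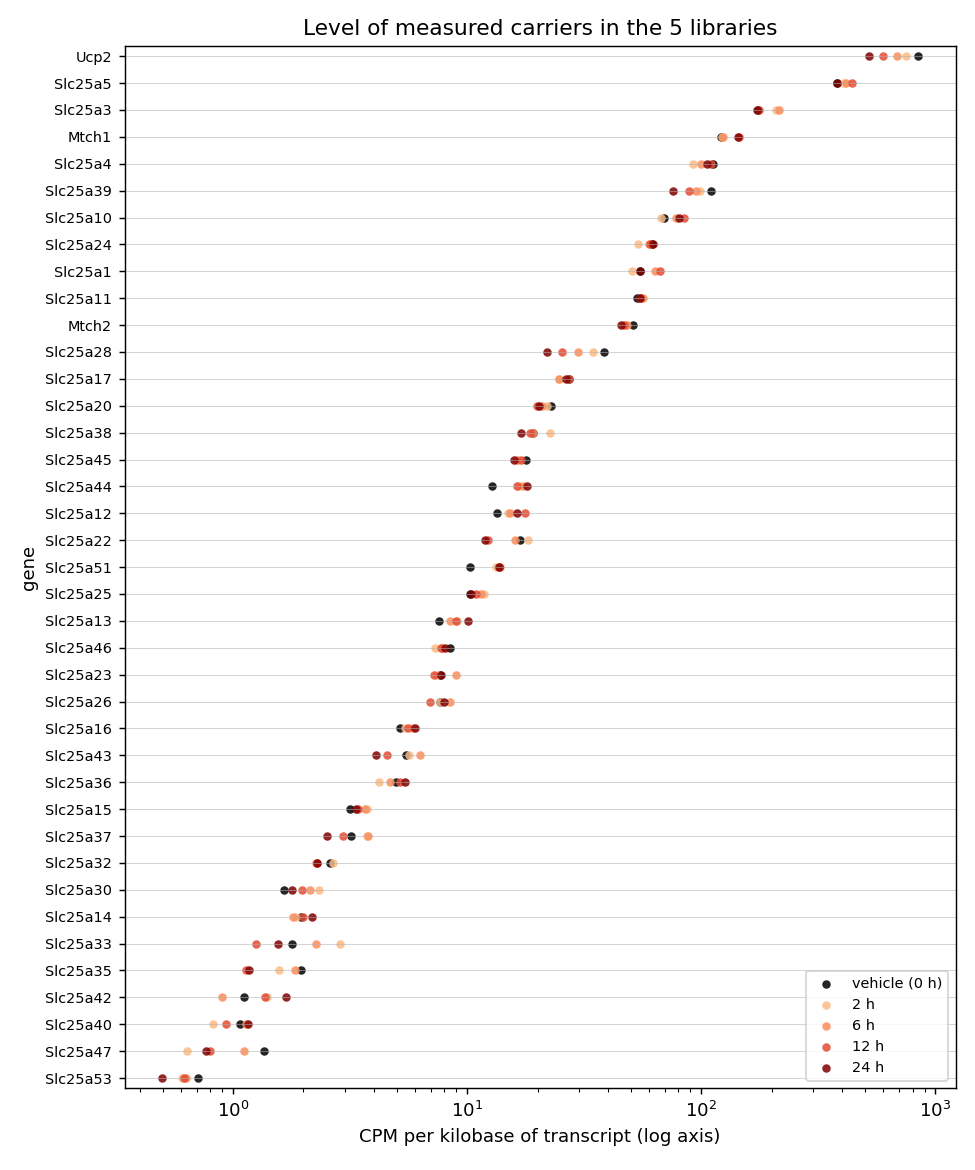
Level of measured SLC25 members and of Ucp2, Mtch1 and Mtch2 in CPM per kilobase of transcript (log axis), with 1 point per library. Ucp2 and Slc25a5 stand highest, the 5 points of a gene mostly lie close together, and those of Ucp2, Slc25a39 and Slc25a28 run downward from vehicle (black) to 24 h (dark red).

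Most carriers lay near their vehicle level at every time. Summed over the 47 members, the family had 2434 CPM in vehicle and 2474, 2562, 2535 and 2405 CPM after 2, 6, 12 and 24 h. The median log2 ratio of the 37 measured members against vehicle was 0.04, 0.09, -0.02 and 0.01 at 2, 6, 12 and 24 h, beside medians of 0.01, 0.02, -0.01 and 0.00 over all 12002 genes. At 24 h, 19 members lay above vehicle and 18 below. The median size of a member's log2 ratio at 24 h over vehicle was 0.17, against 0.33 over all genes, with median levels of 34.6 and 28.5 CPM. Members and all genes were not matched for transcript length. Of the members, 3 lay in the shortest quintile of length and 3 in the longest, where the all-gene medians were -0.27 and 0.42. The part of length in the smaller size was not tested. For 24 h over 2 h, where vehicle does not enter, the median sizes of members and all genes lay close together, at 0.215 and 0.225.

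A gene was called when its log2 ratio reached 1 in size and its 95% exact interval excluded a ratio of 1. The interval covers counting error only, and no difference between 2 libraries was checked by replicates. Against vehicle, 1 of 37 members was called at 2 h and 0 at 6, 12 and 24 h. The share of all genes called was 3.32%, 4.11%, 5.42% and 7.07% at these 4 times. For 24 h over 2 h, which compares treated libraries only, 0 members were called, against 3.49% of all genes. With the size lowered to 0.58 on the log2 scale (about a 1.5-fold ratio), 2, 0, 3 and 4 members passed at 2, 6, 12 and 24 h over vehicle, where 14.7%, 17.3%, 19.9% and 24.7% of all genes did, and 3 passed for 24 h over 2 h (12.3% of all genes).

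**Figure D3:**
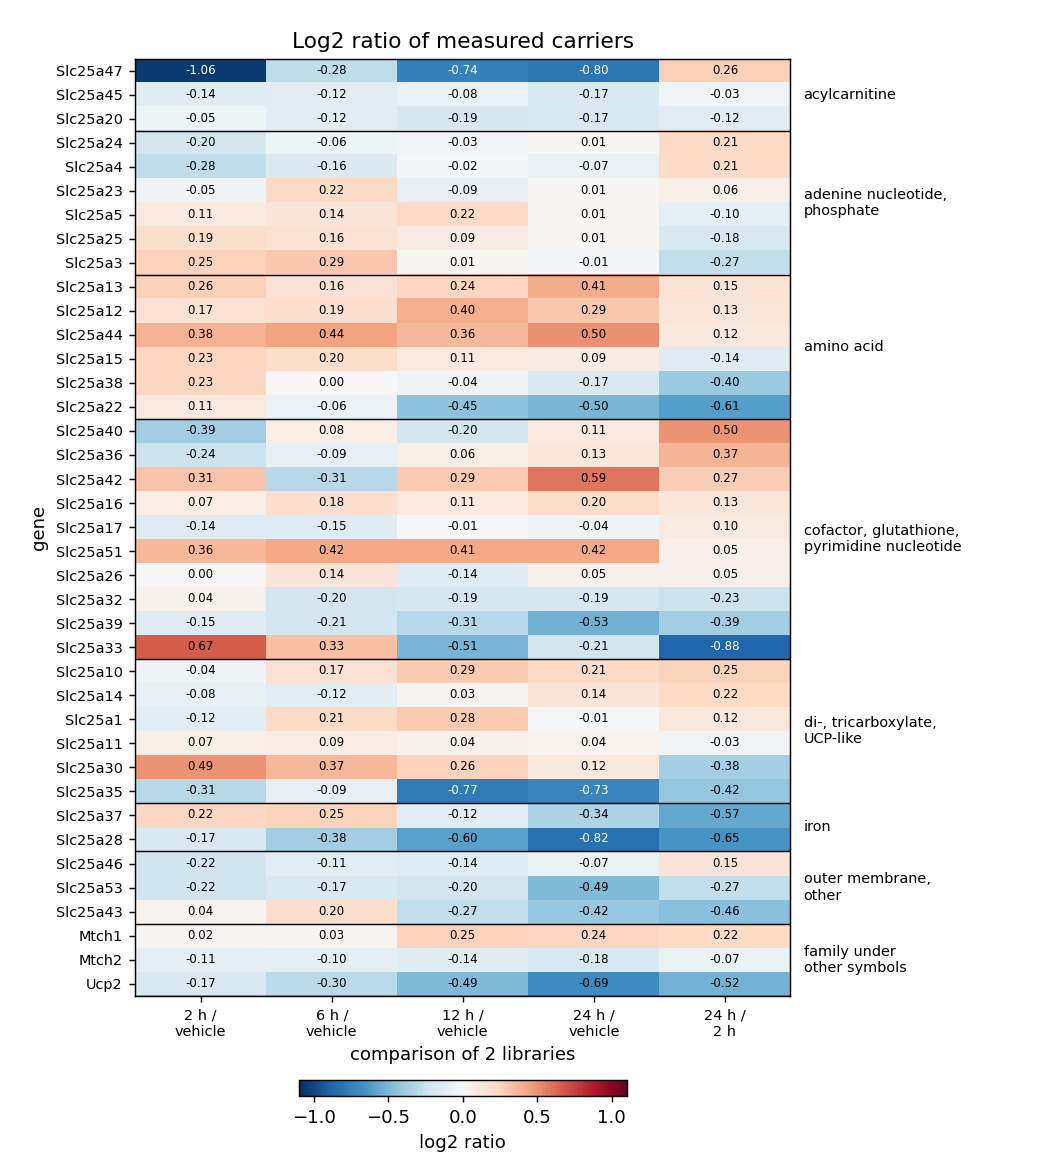
Log2 ratio of measured carriers (rows, grouped by what it carries) for the 4 treated libraries over vehicle and for 24 h over 2 h (columns). Most cells lie near 0; the darkest blue are Slc25a47 at 2 h over vehicle (-1.06), Slc25a33 at 24 h over 2 h (-0.88) and Slc25a28 at 24 h over vehicle (-0.82), and the darkest red is Slc25a33 at 2 h over vehicle (0.67).

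The iron carriers held the member with the smallest p for a trend. Slc25a28, mitoferrin 2, brings iron into the matrix for heme and iron-sulfur cluster synthesis (ENSMUSG00000040414, GRCm38 chromosome 19, 43663801 to 43674881). It stood at 59.3 CPM in vehicle and at 52.8, 45.6, 39.1 and 33.6 CPM after 2, 6, 12 and 24 h. Each library was lower than the one before. Its log2 ratio to vehicle at 24 h was -0.82 (interval -0.92 to -0.72; length-adjusted -0.54), short of the size for a call. At 24 h over 2 h it was -0.65 (-0.75 to -0.55; length-adjusted -0.44).

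A slope on log2(hours + 1) over the 5 libraries was tested in all genes with edgeR's quasi-likelihood test, whose spread is the scatter of the libraries around the line. Slc25a28 fell by 0.178 on the log2 scale per unit of log2(hours + 1), with an adjusted p of 0.0203. Of 39 members tested, 2 passed an adjusted p of 0.05, both falling, against 9.41% of 13915 genes in either direction and 4.05% falling. Slopes and their p-values were not adjusted for transcript length or GC content, here or below. Leaving out the 12 h or the 24 h library ended both calls, with smallest adjusted p-values among members of 0.119 and 0.0958, and over all genes the count then dropped from 1309 to 0 and to 28.

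Slc25a37, mitoferrin 1, the paralog that serves heme synthesis in red cell precursors, stood at 13.3 CPM in vehicle and at 15.5, 15.8, 12.3 and 10.5 CPM after 2, 6, 12 and 24 h. It was thus above vehicle at 2 and 6 h and lowest at 24 h. The log2 ratio was -0.34 (-0.54 to -0.15; length-adjusted -0.53) at 24 h over vehicle and -0.57 (-0.75 to -0.39; length-adjusted -0.59) at 24 h over 2 h. Its slope did not pass over the 5 libraries (edgeR, adjusted p = 0.374) and passed over the 4 treated ones (-0.196, adjusted p = 0.0402).

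Among carriers of cofactors, glutathione and pyrimidine nucleotides, Slc25a39 was the other member that passed the trend. This importer of glutathione into mitochondria (chromosome 11, 102402985 to 102407946) stood at 185 CPM in vehicle and at 167, 159.7, 149 and 128 CPM after 2, 6, 12 and 24 h. Its level was lower in each library than in the one before. It fell by 0.104 per unit of log2(hours + 1) with an adjusted p of 0.0473 (edgeR), close to the threshold, and its log2 ratio at 24 h over vehicle was -0.53 (-0.58 to -0.48; length-adjusted -0.30). With libraries scaled by total counts it did not pass (adjusted p = 0.0572), nor with time as a rank (0.0544) or without the 6 h library. Slc25a40, its paralog, stood between 2.28 and 3.23 CPM in the 5 libraries, with a log2 ratio of 0.11 (-0.27 to 0.50) at 24 h over vehicle.

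Slc25a33, which carries pyrimidine nucleotides into mitochondria, had the widest swing among treated libraries. It stood at 3.39 CPM in vehicle and at 5.41, 4.26, 2.36 and 2.93 CPM after 2, 6, 12 and 24 h. It was above vehicle at 2 and 6 h and below it at 12 and 24 h. The log2 ratio was 0.67 (0.34 to 1.02; length-adjusted 0.74) at 2 h over vehicle and -0.88 (-1.22 to -0.56; length-adjusted -0.82) at 24 h over 2 h, on 111 counts in vehicle and 202 at 2 h. Its slope over the treated libraries had an adjusted p of 0.0533 (edgeR). Slc25a36, the related pyrimidine nucleotide carrier, ran the other way, at 21.97, 24.4, 27.1 and 28.4 CPM after 2, 6, 12 and 24 h, and rose over the 4 treated libraries (slope 0.130, adjusted p = 0.0369). In vehicle it stood at 25.9 CPM, inside the treated range, and over all 5 libraries it did not pass (0.476). Its length-adjusted log2 ratio at 24 h over 2 h was 0.15, against 0.37 unadjusted.

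Of the remaining cofactor carriers, Slc25a51, which brings NAD into the matrix, was at 45.6 CPM in vehicle and at 58.7, 61.2, 60.8 and 61.0 CPM at 2, 6, 12 and 24 h. All 4 treated libraries were above vehicle and close to each other, with a log2 ratio of 0.42 (0.33 to 0.51) at 24 h that was 0.20 when length-adjusted. Slc25a42, a coenzyme A carrier, had the highest ratio of the members at 24 h over vehicle (0.59, 0.27 to 0.93; length-adjusted 0.57), on 117 counts in vehicle and 230 at 24 h, with 3.57 CPM in vehicle and 4.45, 2.87, 4.37 and 5.39 CPM at 2, 6, 12 and 24 h. The 6 h library was thus below vehicle and the 24 h library highest. Slc25a32, a carrier of folate and FAD, stood at 15.4 CPM in vehicle and at 15.8, 13.4, 13.5 and 13.4 CPM in time order. Its log2 ratio at 24 h was -0.19, and -0.51 when length-adjusted. Slc25a26 (S-adenosylmethionine), Slc25a16 and Slc25a17 (peroxisomal) had log2 ratios between -0.15 and 0.20 at all 4 times over vehicle. After length adjustment they lay between -0.01 and 0.33, with Slc25a17 above vehicle at all 4 times in place of below.

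Carriers of amino acids stood above vehicle at 2 h in all 6 measured members, with log2 ratios of 0.11 to 0.38 (median 0.23; 0.21 length-adjusted) and 0 called, beside a median of 0.01 over all genes. Length adjustment put Slc25a12 below vehicle at 2 h (-0.14) and left Slc25a22 at 0.03. At 24 h 4 were above and 2 below vehicle, or 3 and 3 after length adjustment, which put Slc25a12 below. Slc25a22, which carries glutamate with a proton into the matrix, stood at 47.2 CPM in vehicle and at 50.9, 45.2, 34.6 and 33.4 CPM after 2, 6, 12 and 24 h. It was lower at 12 and 24 h than in the other 3 libraries, with a log2 ratio of -0.50 (-0.61 to -0.40; length-adjusted -0.43) at 24 h over vehicle. Its slope passed over the 4 treated libraries (-0.214, adjusted p = 0.00844, edgeR) and not over all 5 (0.0787).

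Slc25a38, a glycine carrier needed for heme synthesis, was highest at 2 h, with 40.4 CPM against 34.3 in vehicle, and then stood at 34.3, 33.3 and 30.5 CPM at 6, 12 and 24 h. Over the treated libraries it fell by 0.123 per unit of log2(hours + 1) (edgeR, adjusted p = 0.0368), and its log2 ratio at 24 h over 2 h was -0.40 (-0.51 to -0.30; length-adjusted -0.33). Slc25a44, a carrier of branched-chain amino acids, stood at 45.8 CPM in vehicle and at 59.7, 62.0, 58.7 and 64.7 CPM in time order. All treated libraries were above vehicle, with a log2 ratio of 0.50 (0.41 to 0.59; length-adjusted 0.40) at 24 h and an adjusted p of 0.115 for the slope (edgeR).

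The aspartate/glutamate carriers of the malate-aspartate shuttle, Slc25a12 and Slc25a13, were likewise above vehicle in all treated libraries. Slc25a12, with 85.1 CPM in vehicle and 95.4, 97.0, 112 and 104 CPM after it, has a long transcript, and its log2 ratio of 0.29 at 24 h was -0.12 when length-adjusted. For Slc25a13, with 23.7 CPM in vehicle and 28.4, 26.5, 28.0 and 31.5 CPM after it, the ratio was 0.41 (0.28 to 0.54) before and after adjustment. Slc25a15, the ornithine carrier of the urea cycle, stood between 10.9 and 12.8 CPM in the 5 libraries.

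Adenine nucleotide and phosphate carriers had log2 ratios to vehicle between -0.28 and 0.29 for the 6 measured members, and 0 were called. After length adjustment the ratios lay between -0.21 and 0.49, the highest being those of Slc25a3 at 2 and 6 h (0.46 and 0.49). Slc25a5 stood at 469.7 CPM in vehicle and at 506, 517, 547 and 474 CPM after 2, 6, 12 and 24 h, and so was highest at 12 h. Its log2 ratios at 2, 6, 12 and 24 h were 0.11, 0.14, 0.22 and 0.01, or 0.34, 0.36, 0.42 and 0.18 when length-adjusted. Slc25a4 went from 216 CPM in vehicle to 177 at 2 h and then stood at 192, 212 and 205 CPM. Its share of the counts of both ADP/ATP carriers was 31.5% in vehicle (Wilson interval 30.9 to 32.1%), 25.95% at 2 h (25.4 to 26.5%) and 30.2% at 24 h (29.6 to 30.7%). The pseudogene Slc25a5-ps had at most 4 counts per library. Slc25a3 was above vehicle at 2 and 6 h (281 CPM in vehicle, 336 and 345) and near it at 12 and 24 h (284 and 278), and the calcium-regulated Slc25a24, Slc25a23 and Slc25a25 had ratios between -0.20 and 0.22 (length-adjusted -0.21 to 0.08). Slc25a25 overlaps Naif1 (21.9 to 25.8 CPM) on the other strand.

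Among dicarboxylate, tricarboxylate and UCP-like carriers, Slc25a1, which exports citrate for fatty acid and sterol synthesis, was at 91.7 CPM in vehicle and at 84.2, 106, 112 and 91.4 CPM in time order. It was highest at 6 and 12 h, with log2 ratios of 0.21 (0.14 to 0.28) and 0.28 (0.22 to 0.35), and at -0.01 at 24 h (0.21 length-adjusted). Slc25a10 stood at 140.2 CPM in vehicle and at 136.9, 157, 171 and 162 CPM after 2, 6, 12 and 24 h, and its ratio at 24 h over 2 h was 0.25 (0.20 to 0.30; length-adjusted 0.47). Slc25a11 of the malate-aspartate shuttle had log2 ratios of 0.04 to 0.09 over vehicle (length-adjusted 0.15 to 0.18). Its exons overlap those of Rnf167 on the other strand, which had 28.05 to 34.8 CPM, and the library kit does not mark strand. Slc25a35, a carrier of unsettled substrate, was lower late, at 7.11 CPM in vehicle and 5.73, 6.69, 4.16 and 4.26 CPM after it, with -0.73 (-1.02 to -0.45; length-adjusted -0.84) at 24 h. Its exons overlap those of Rangrf on the other strand, which had 1.32 to 1.77 CPM. Slc25a30 was highest at 2 h (8.36 CPM against 5.92 in vehicle; 0.49, 0.23 to 0.77) and at 0.12 by 24 h, and Slc25a14 stood between 3.25 and 3.91 CPM.

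Slc25a47, a carrier described in liver, was the 1 member called, at 2 h over vehicle. It had 84 counts in vehicle and 45 at 2 h, or 2.56, 1.21, 2.10, 1.51 and 1.45 CPM in time order, so that all treated libraries were lower and the 6 h library nearest to vehicle. The log2 ratio was -1.06 (-1.64 to -0.55; length-adjusted -1.002) at 2 h and -0.28 (-0.74 to 0.16) at 6 h. Of all genes, 1.52% were called lower at 2 h. The carnitine/acylcarnitine carrier Slc25a20, which brings fatty acids into the matrix for oxidation, stood between 35.6 and 40.6 CPM, and Slc25a45 between 41.3 and 46.5 CPM, both highest in vehicle. Length adjustment put Slc25a20 above vehicle at 2 and 6 h (0.09 and 0.03). Slc25a46, a member of the outer membrane tied to mitochondrial shape, stood between 31.9 and 37.1 CPM. Slc25a43 was lowest at 24 h (4.55 CPM against 6.10 in vehicle; -0.42, -0.72 to -0.13; length-adjusted -0.24), as was Slc25a53 (1.59 against 2.26 CPM; -0.49, -0.999 to -0.01).

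**Figure D4:**
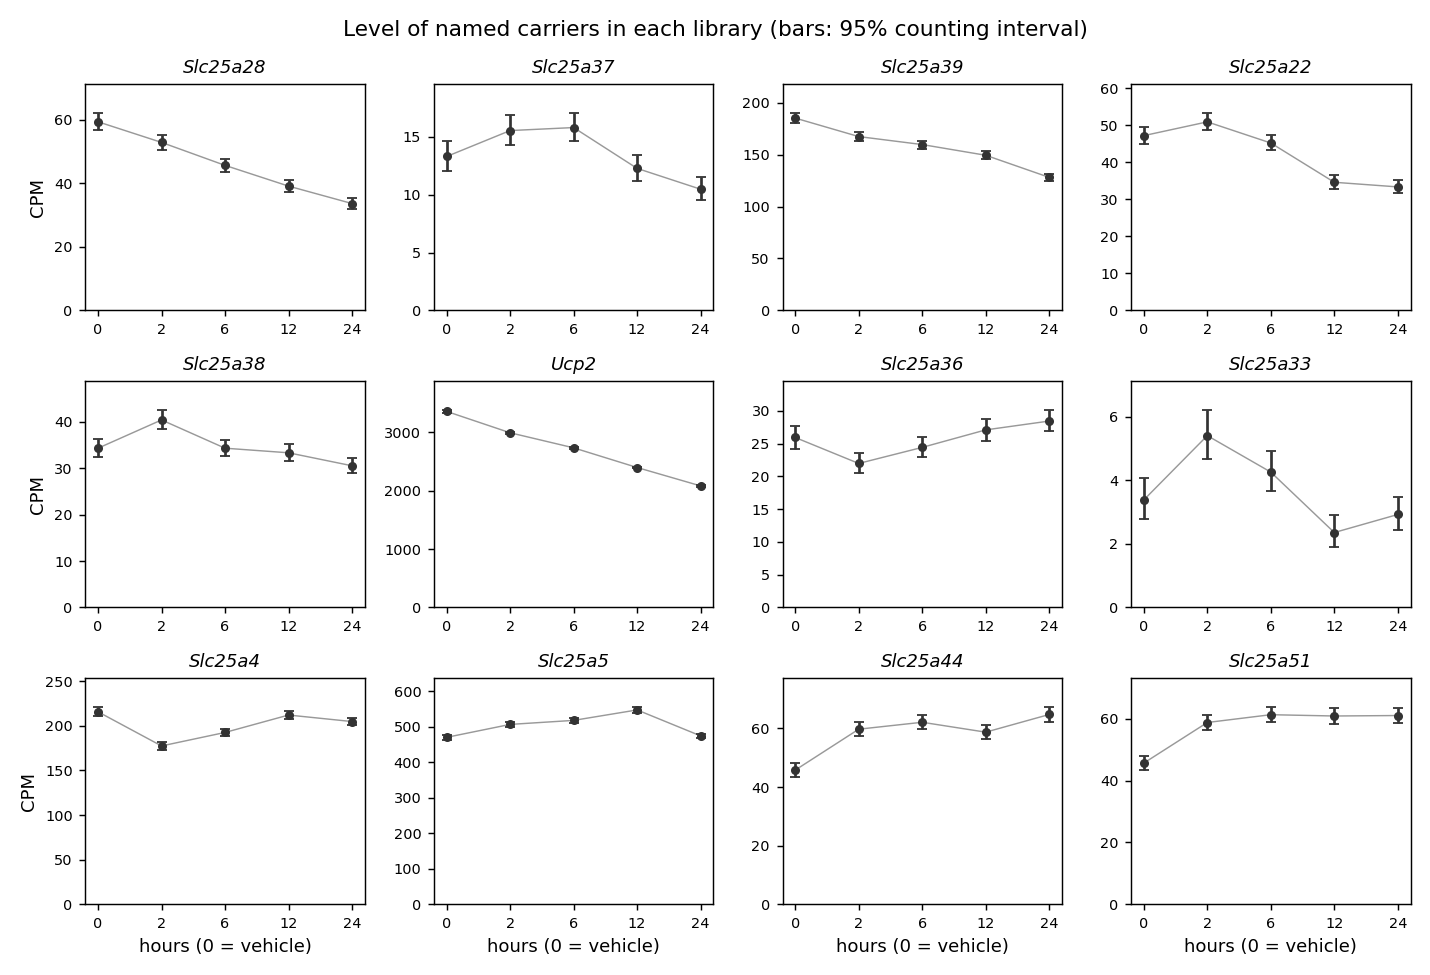
CPM in each library (points, with 95% exact Poisson intervals of counting error) for 12 carriers, against hours in equal steps, where 0 is vehicle and each axis starts at 0. Slc25a28, Slc25a39 and Ucp2 decline through all 5 libraries, Slc25a22, Slc25a37, Slc25a38 and Slc25a33 are lower at 24 h than at 2 h, and Slc25a44 and Slc25a51 stand above vehicle in all treated libraries.

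Ucp2 ran the same way as Slc25a28 and Slc25a39. It stood at 3357 CPM in vehicle and at 2991, 2733, 2396 and 2081 CPM after 2, 6, 12 and 24 h, so that the 24 h library was lowest and vehicle highest. It fell by 0.145 per unit of log2(hours + 1) (edgeR, adjusted p = 0.0283), and its log2 ratio at 24 h over vehicle was -0.69 (-0.70 to -0.68; length-adjusted -0.85). Without the 6, 12 or 24 h library its slope did not pass. Mtch1 was above vehicle at 12 and 24 h (0.25 and 0.24; length-adjusted 0.43 and 0.50). Mtch2 lay between -0.18 and -0.10 at all 4 times, and length adjustment turned it above vehicle at 2 and 6 h (0.04 and 0.05) and left it at -0.03 and -0.09 at 12 and 24 h.

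Over the 4 treated libraries alone, where vehicle does not enter, 7 of 39 members passed the slope test, against 15.8% of 13764 genes. Of these, 6 fell (Slc25a2, Slc25a22, Slc25a28, Slc25a37, Slc25a38 and Slc25a39) and Slc25a36 rose, while 7.83% of all genes fell and 7.98% rose. Slc25a2 had 20 counts at 2 h and 3 at 24 h and is not among the measured members. The 2 members that passed over all 5 libraries were among these 7.

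Other genes that serve carriers were taken from lists fixed by name. Of all genes, 3.32 to 7.07% were called in either direction in the 5 comparisons, and 9.41% passed the trend. Lists this small cannot set the counts below apart from these shares. Of 16 genes that import carriers into the inner membrane, 0 were called at any time and 0 passed the trend, and their median log2 ratio at 24 h over vehicle was -0.23 (-0.12 length-adjusted). Tomm20, with the most counts of them and a receptor of the TOM complex, stood at 193 CPM in vehicle and 137 at 24 h (-0.49, -0.54 to -0.44; length-adjusted -0.74). Of 18 other inner membrane transporters, the calcium uptake regulator Micu3 was called higher at 12 h (1.28, 0.79 to 1.88; 1.22 CPM in vehicle and 3.05 at 12 h). Sfxn4, of the sideroflexins, was called lower at 12 h (-1.11) and 24 h (-1.44, -2.59 to -0.63), on 32 counts in vehicle and 14 at 24 h. Length adjustment ended its call at 12 h (-0.88) and not that at 24 h (-1.25). Smdt1, a subunit of the calcium uniporter with the most counts of this list, stood at 202 CPM in vehicle and 167 at 24 h (-0.28; length-adjusted -0.02), and 0 of the 18 passed the trend. Of the 3 voltage-dependent anion channels of the outer membrane 0 were called and 0 passed the trend. Vdac2, with the most counts, stood at 442 CPM in vehicle and 339 at 24 h (-0.39; length-adjusted -0.26), and Vdac1 at 223 and 289.8 CPM (0.38, 0.34 to 0.42; length-adjusted 0.49).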

How the data were processed

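Poly-A RNA libraries of MutuDC cells were made with a kit that does not mark strand, per the labels' protocols. The authors deposited raw counts per gene, with a column for each time point. Trim Galore, HISAT2 and GRCm38 are named, without versions, in the submitters' processing notes. No counting program, annotation or handling of multimapping reads is given in the sources used here, so intervals take 1 count as 1 read. If the counts were instead derived from coverage, which no source used here states either way, the intervals would not have their nominal meaning. The design text speaks of triplicates; whether each column pools them is not stated. Counts were scaled with edgeR 4.0.16 TMM factors (0.977 to 1.048; R 4.3.3), and log2 ratios use a prior count of 2. Intervals are 95% Clopper-Pearson, covering counting error only. The trend was tested with edgeR (glmQLFTest, filterByExpr, Benjamini-Hochberg over all genes tested, 3 residual degrees of freedom), and DESeq2 1.42.0 served as an alternative. The scripts were tested on simulated data. Positions, lengths and overlaps come from GENCODE M21 (GRCm38), which gave length and GC content for 99.73% of genes compared. Length adjustment subtracted natural splines (5 degrees of freedom each) of log2 length and GC content. Members and lists were chosen with earlier results of these data known. Named genes were all called members, the 3 highest and 3 lowest ratios per comparison, the 5 members with most counts per kilobase, the member with most counts in each group, genes of other lists that were called or had the most counts of their list, and, after their values were seen, other measured members. Values of some single genes are not reported here, while counts and medians include them. Counts of genes called are across libraries, not conditions.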

Additional observations from a re-analysis of the deposited data

How the results depend on the processing

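The counts of called members rested on few genes. With at least 10 CPM in 1 library, 0 of 28 members were called at 2 h over vehicle, since Slc25a47 was then not compared. With no filter, 1 member was called at 24 h over 2 h, Slc25a2, on 3 and 20 counts. The share of all genes called under these filters is not given here, so neither count is set against it. With the size for a call at 0.58 on the log2 scale, 2 members passed at 2 h, 3 at 12 h and 4 at 24 h over vehicle. The shares of all genes were 14.7%, 19.9% and 24.7%. At 24 h over 2 h, 3 members passed, against 12.3% of all genes. Scaling by total counts moved the median of all genes at 24 h over vehicle by 0.103 and that of the members to 0.11, with 24 of 37 then above vehicle in place of 19. Of 185 single log2 ratios, length adjustment took 73 and scaling by total counts 23 outside their counting interval. DESeq2 size factors and a prior count of 0.5 took 0 outside it. Ratios were computed before filtering and each member has 1 entry, so the filters and summed entries were no check of a single ratio. With at least 10 CPM, 140 ratios were compared. With total counts 1 of 39 members passed the trend (10.7% of all genes did), and with time as a rank 1 (5.92%). Without the vehicle library 7 of 39 passed (15.8% of all genes). With DESeq2 3 members passed, and 2449 genes, 20.8% of those given an adjusted p. DESeq2 gave some genes no adjusted p, Slc25a2 among them. With no filter 0 of 42 members and 0 of 24170 genes passed. Of these 42 members, 7 had an unadjusted p under 0.05 (edgeR), against 20.0% of genes. Slc25a28 passed in each of these settings but the unfiltered fit (adjusted p = 0.0713, edgeR). Leaving out 1 treated library at a time, chosen after seeing the data, gave 0 to 2 members. Without the 2 h library 2 of 37 members passed (2205 of 13788 genes). Without the 6 h library 1 of 37 did (509 of 13716 genes). Without the 12 h library 0 of 39 passed (0 of 13824 genes), and without the 24 h library 0 of 39 (28 of 13654 genes). No paired analysis was possible because each time point has 1 library. Depth limits the low members: at 1 CPM a gene had 32.8 to 42.7 counts, and the interval of Slc25a47 at 2 h ran from -1.64 to -0.55.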
